A study of Mus musculus with 26 samples.

Results

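TCPOBOP, a synthetic agonist of the constitutive androstane receptor (CAR), was compared with its carrier, corn oil, in mouse liver. The comparison was taken from the 4 libraries whose titles name these treatments, 2 labelled TCPOBOP and 2 labelled corn oil, of 26 liver libraries in the series, and all genes of the count table entered it. All 4 came from whole liver of wild type C57BL/6J mice of 8 weeks that were fed ad libitum under a 12 hour light/dark cycle. The time after injection differs between the labels of the same TCPOBOP libraries, which read 36 hours in the title and 6 hours in the source name, and no time is given for corn oil. Neither a dose nor the sex is stated. As a reference range, 9 other control whole livers of the series are used: 3 of wild type C57BL/6J mice of 12 weeks fed ad libitum, 3 of C3H/HeN mice of 8 to 10 weeks, fed ad libitum and taken at 0 hours of a sham operation, and 3 of C57BL/6J mice of 10 to 12 weeks with floxed Fxr and Shp alleles, on chow and fasted for 8 to 10 hours. The labels do not say whether each library came from a separate mouse, so p-values measure only the spread between these libraries, which may be technical.

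CAR is a nuclear receptor that hepatocytes keep in the cytoplasm until a drug or other foreign compound sets it free to enter the nucleus. There it pairs with the retinoid X receptor and switches on genes that clear foreign compounds: cytochrome P450 enzymes that oxidise them, transferases that attach sulfate, glucuronide or glutathione, and transporters that export the products. In mice, TCPOBOP is also known for making the liver grow, with a wave of hepatocyte DNA synthesis and division.

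Each library held between 16196563 and 17853180 reads assigned to genes, and mitochondrial genes took from 4.77% to 5.54% of them. Levels are given as CPM (gene counts relative to library size, with sizes scaled by TMM over the 4 libraries), and 3 counts, the floor used here, correspond to 0.168 to 0.185 CPM. Unless stated otherwise, a run of 4 CPM values is in the order corn oil 1, corn oil 2, TCPOBOP 1, TCPOBOP 2, and these names are the labels. CPM takes no account of gene length, so levels are compared between libraries and not between genes. In whole tissue, fewer cells of a type and less RNA per cell cannot be told apart. The defining hepatocyte genes were high in all 4 libraries (for example apolipoprotein A1, Apoa1, at 5377, 7261, 5486 and 4438 CPM). Pancreas genes such as Prss2, Cpa1 and Pnlip were below the expression filter, which 2 of the 12 pancreas and gut genes listed passed.

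The TCPOBOP libraries paired by label, but the corn oil libraries did not. Over the 12785 genes that passed the expression filter, the TCPOBOP libraries had a Pearson correlation across genes of 0.987 on the log2 CPM scale, and 435 genes lay at least 2-fold apart between them. Corn oil 1 and corn oil 2 had the lowest correlation of the 6 pairs, 0.945, with 1332 genes at least 2-fold apart. Corn oil 1 was nearer to TCPOBOP 1 (0.977, 786 genes) and TCPOBOP 2 (0.974, 792 genes) than corn oil 2 was (0.956 with 1226 genes, and 0.958 with 1134 genes). These correlations are across genes, which are not independent replicates. Taken as single libraries, corn oil 2 stood at least 2-fold below every other library in 461 genes and above in 127. The same counts were 138 and 119 for corn oil 1, 69 and 17 for TCPOBOP 1, and 21 and 28 for TCPOBOP 2.

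**Figure D1:**
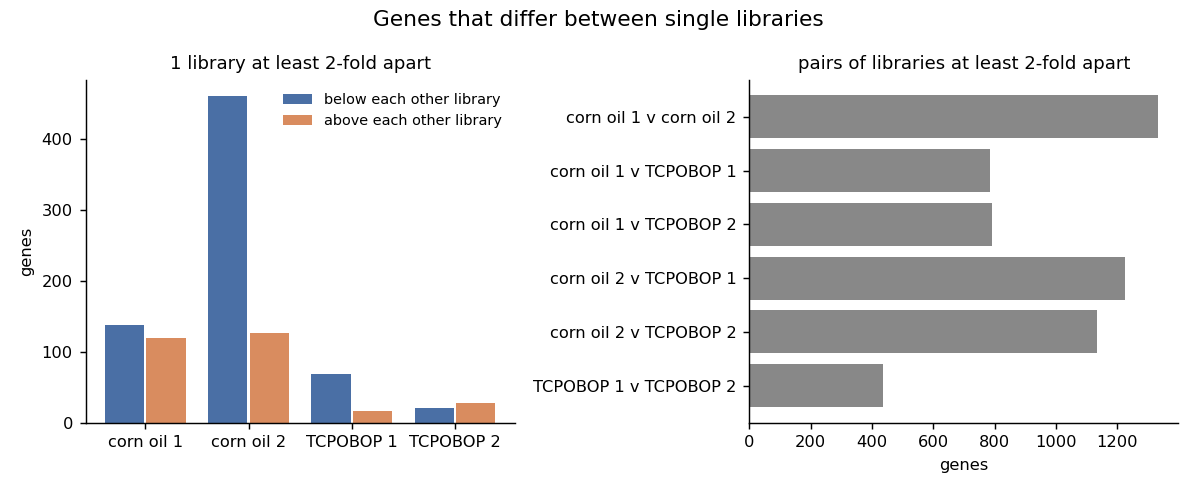
Left, number of genes in which a single library lay at least 2-fold below (blue) or above (orange) each of the other 3 libraries; right, number of genes at least 2-fold apart in each pair of libraries. Corn oil 2 had the tallest bar (461 genes below), and the 2 corn oil libraries had more genes apart (1332) than any other pair.

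With all 4 libraries, edgeR's quasi-likelihood test called 0 of 12785 genes at an adjusted p under 0.05 (0%), with 751 genes at an unadjusted p under 0.05 and a smallest adjusted p of 0.345. DESeq2's Wald test on the same genes called 91 (0.712%), of which 51 were higher (0.399%) and 40 lower (0.313%) with TCPOBOP. The call rested on which corn oil library was used. Without corn oil 1, edgeR called 1233 of 13190 genes (9.35%), 753 raised and 480 lowered. Without corn oil 2 it called 413 of 13139 genes (3.14%), 198 raised and 215 lowered. Without TCPOBOP 1, and likewise without TCPOBOP 2, the same 4-library test called 0 genes, with 204 and 223 genes at an unadjusted p under 0.05. In each of these fits the lone library is assumed to vary like the pair of the other group. The estimated variation was 12.3% from the TCPOBOP pair and 33.4% from the corn oil pair, so that assumption did not hold here. Fits with a lone corn oil library use the smaller spread, so their adjusted p-values may be too small and their calls too many. A fit that takes its spread from all 26 libraries of the series called 9 of 14921 genes (0.0603%), 4 raised (0.0268%) and 5 lowered (0.0335%), among them Hp, Gamt and Gsta2. That fit called 569 without corn oil 1 (3.69%; 2.44% raised and 1.25% lowered) and 27 without corn oil 2 (0.175%; 0.0713% raised and 0.104% lowered).

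Of 12967 genes tested in both fits with a lone corn oil library, 69 were called raised in both and 50 called lowered in both. Another 47 were called raised against corn oil 2 but lowered against corn oil 1, among them Gstm3, Gsta1, Gstm2, Sult1e1, Mki67 and Hmmr. For 21 genes the calls were the other way round, among them the fatty acid hydroxylases Cyp4a10 and Cyp4a14. Both fits use the same TCPOBOP libraries, so their calls are not independent of each other.

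A gene was taken to separate the treatments where its lowest TCPOBOP library lay at least 2-fold above its highest corn oil library, or its highest TCPOBOP library at least 2-fold below its lowest corn oil library (log2 CPM, prior count 2). This held for 48 genes in the higher direction (0.375% of 12785) and 40 in the lower (0.313%), 88 in all (0.688%). With no minimum gap, 2143 genes had every TCPOBOP library above every corn oil library (16.8%) and 2385 had every one below (18.7%), 35.4% together. At the 2-fold edge, Itih4 lay just inside the higher class with a gap of 2.05-fold and Gne just outside at 1.99-fold. Membership in this class was read from the same values that follow, so the values describe the genes and the gap itself is no test. Calls of these genes against a lone corn oil library reuse that gap and add no support.

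The acute phase genes, which the liver secretes in response to inflammatory cytokines, gave the widest gaps. Saa2 (serum amyloid A2, chr7:46751790-46754313 on GRCm38) was at 53.4, 42.8, 2323 and 4712 CPM. Its neighbour Saa1 (chr7:46740497-46742980) was at 99.1, 107, 3255 and 5731 CPM. For both genes the corn oil libraries lay together, and the lower TCPOBOP library stood 43.4-fold and 30.5-fold above them. The log2 fold change was 6.19 ± 0.50 (SE) for Saa2 and 5.45 ± 0.42 for Saa1, each with an adjusted p of 0.345 in edgeR with 2 libraries a group. Without corn oil 1 the log2 fold change of Saa1 was 5.40 ± 0.41, and without corn oil 2 it was 5.50 ± 0.42. In the fit over all 26 libraries its edgeR adjusted p was 0.175. Saa1 and Saa2 are close copies, so how their reads were divided is uncertain.

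Other secreted acute phase proteins separated too. Lipocalin 2 (Lcn2), which binds bacterial iron carriers, was at 37.6, 4.98, 247 and 626 CPM. Orosomucoid 2 (Orm2), a plasma carrier protein, was at 135, 21.1, 529 and 1073 CPM. In these genes corn oil 1 lay above corn oil 2 but still below both TCPOBOP libraries, and both are also among the genes in which corn oil 1 sided with TCPOBOP. Haptoglobin (Hp), which binds free haemoglobin, was at 2332, 2569, 6910 and 9843 CPM. Serum amyloid P (Apcs) was at 223, 96.1, 561 and 892 CPM. Itih4, a plasma protease inhibitor chain, was at 1756, 2031, 4157 and 5474 CPM, which put every TCPOBOP library above both corn oil libraries. Orm1 was at 853, 626, 1818 and 2436 CPM, and metallothionein 2 (Mt2), which binds zinc and copper, was at 5.23, 5.78, 25.1 and 18.3 CPM, all 4 below the 9 other control livers of the series (29.1 to 360 CPM, scaled over all 26 libraries).

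Of 27 acute phase genes tested, 22 had both TCPOBOP libraries above both corn oil libraries and 0 both below (16.8% and 18.7% over all genes). In 9 of the 27 both TCPOBOP libraries were above by at least 2-fold (0.375% over all genes). The median log2 fold change of the 27 was 1.10, beside -0.02 over all genes. With a lone corn oil library, edgeR called 18 raised and 1 lowered without corn oil 1, and 16 raised and 0 lowered without corn oil 2 (5.71%, 3.64%, 1.51% and 1.64% over all genes). The median difference between TCPOBOP 2 and TCPOBOP 1 over the list was 0.43 on the log2 scale, and the sinusoidal endothelium markers differed the same way, by a median of 0.89 over 14 genes. Other members were elsewhere. Socs3, the feedback inhibitor of cytokine signalling, was highest in corn oil 2 (2.84, 49.6, 7.41 and 10.9 CPM). Hamp, the iron hormone hepcidin, was low in corn oil 1 only (36.4, 483, 337 and 535 CPM).

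In the 9 other control livers, which differ in strain, age, genotype or feeding from these mice, Saa1 ran from 60.7 to 5256 CPM with a median of 133 (scaled over all 26 libraries). On that scale the TCPOBOP libraries were at 3214 and 5541 CPM, so 1 stood inside and 1 just above that range. Lcn2 ran from 4.37 to 260 CPM in those controls, with TCPOBOP at 244 and 605 CPM. Macrophage markers showed no matching gap. Over 15 of them the summed CPM was 434 and 531 in corn oil and 468 and 595 in TCPOBOP, with 2 genes above both corn oil libraries in both TCPOBOP libraries. One was the haemoglobin scavenger receptor Cd163 (8.92, 13.7, 25.5 and 27.1 CPM, chosen after its values were seen). The part of other cells in the acute phase values was not tested.

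Stellate and bile duct markers overlapped between the treatments in their sums. Over 16 stellate and matrix genes, the summed CPM was 335, 434, 427 and 393. Over 14 bile duct genes, of which 10 were tested, it was 146, 124, 132 and 118. The 14 endothelial genes summed to 361, 382, 277 and 488 CPM, so the TCPOBOP libraries were the lowest and the highest. The median log2 fold change over the genes tested was 0.05, -0.07 and 0.04 for these 3 lists.

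**Figure D2:**
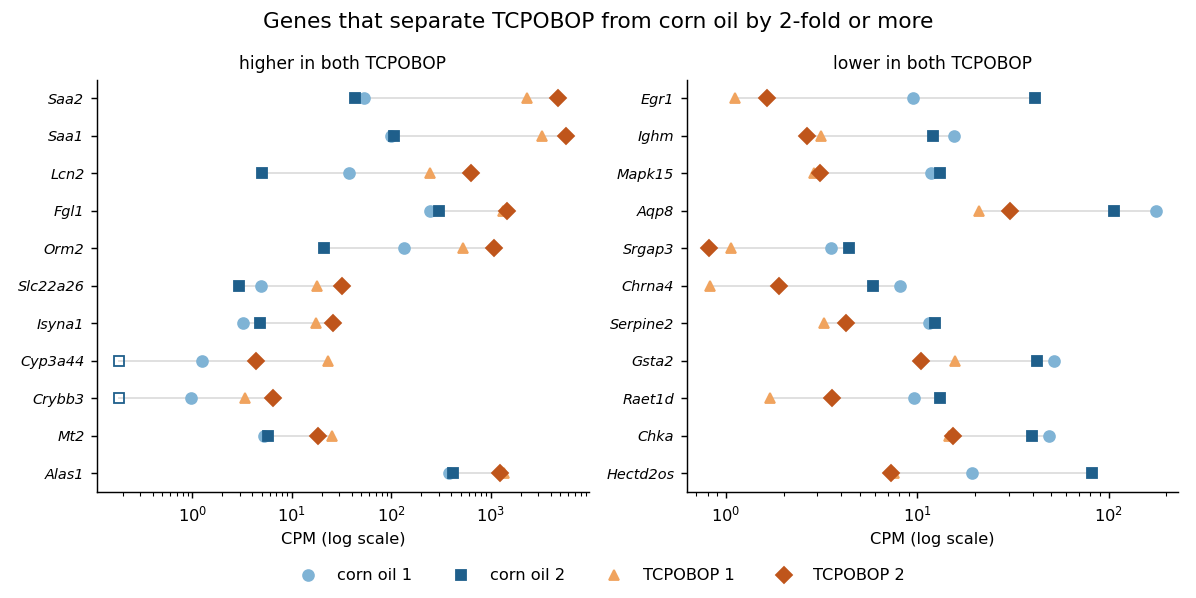
CPM on a log axis of the 11 genes with the widest gap in each direction among those that separate TCPOBOP from corn oil by at least 2-fold; each symbol is a library, and an open symbol at 0.185 CPM marks a library below that level. In the left panel both orange symbols lie to the right of both blue ones for every gene, with the widest gap in Saa2 (43.4-fold), and in the right panel both lie to the left.

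Among the letters searched in the RefSeq promoters (GRCm38.p6), the STAT pair TTCNNNGAA, which reads the same on both strands, was found in the 250 bases before the start of 7 of 23 acute phase genes with a promoter in the table (30.4%), beside 6.24% of all 9813 tested genes with one. The promoter of Itih4, a gene at the edge of the separating class, is shown with that match in capitals. Its match begins 51 bases before the annotated start and overlaps no other motif searched.
Itih4, chr14:30886226-30886475 (+ strand): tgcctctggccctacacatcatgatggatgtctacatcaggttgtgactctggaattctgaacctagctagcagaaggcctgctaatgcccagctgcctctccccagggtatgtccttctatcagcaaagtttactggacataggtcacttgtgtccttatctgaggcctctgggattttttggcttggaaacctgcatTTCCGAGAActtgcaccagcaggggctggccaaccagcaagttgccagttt
The Saa1 and Saa2 promoters held no match, which says only that these letters are not in that window. A share of 20.0% was found for the same letters in 15 promoters of fat oxidation genes.

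Of 34 phase I genes of the CAR programme tested, 3 separated the treatments by 2-fold in the higher direction (0.375% over all genes). These were Alas1, Por and Cyp3a44. Alas1, the rate-limiting enzyme of haem synthesis in the liver (chr9:106233455-106248654), was at 382, 416, 1345 and 1243 CPM. The corn oil libraries were alike, and both TCPOBOP libraries stood apart from them. Its log2 fold change was 1.70 ± 0.19 (edgeR adjusted p = 0.345), with 1.64 ± 0.17 without corn oil 1 and 1.76 ± 0.17 without corn oil 2. In the fit over all 26 libraries its edgeR adjusted p was 0.126. Alas1 in the 9 other control livers ran from 245 to 968 CPM, below both TCPOBOP libraries (1328 and 1202 CPM on that scale).

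Por, the reductase that passes electrons to every microsomal P450, was at 794, 238, 1927 and 1734 CPM. It separated the treatments by 2-fold, and corn oil 1 lay between corn oil 2 and TCPOBOP. Against corn oil 2 alone its log2 fold change was 2.95 ± 0.19 (edgeR adjusted p = 0.000157), and against corn oil 1 alone it was 1.21 ± 0.18 (edgeR adjusted p = 0.0108). 2 further P450 genes were called raised in both fits: Cyp3a13 (373, 163, 580 and 603 CPM) and Cyp3a59 (89.8, 50.0, 174 and 137 CPM). Cyp3a44, a P450 more abundant in female than male liver, was at 1.25, 0.0572, 23.1 and 4.40 CPM, with the TCPOBOP libraries far apart from each other. Its corn oil 2 value rests on 1 count.

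Outside these lists, Fgl1, a secreted fibrinogen-like protein of hepatocytes, was at 246, 302, 1319 and 1465 CPM. Its log2 fold change was 2.35 ± 0.22 (edgeR adjusted p = 0.345). Gpcpd1, which cleaves glycerophosphocholine, was at 49.8, 48.3, 202 and 147 CPM. Isyna1, the enzyme that makes inositol phosphate from glucose phosphate, was at 3.24, 4.81, 17.5 and 25.9 CPM. In each the corn oil libraries sat close together. Across the 9 other control livers, Fgl1 ran from 152 to 1521 CPM and Gpcpd1 from 107 to 394 CPM, so the TCPOBOP libraries (1302 and 1416 CPM, and 199 and 142 CPM, on that scale) were inside both ranges and corn oil was below that of Gpcpd1. Isyna1 ran from 3.26 to 15.1 CPM, below both TCPOBOP libraries (17.2 and 25.0 CPM). The transporter gene Slc22a26 (4.94, 2.92, 18.0 and 31.6 CPM) and the lens crystallin gene Crybb3 (0.966, 0.172, 3.41 and 6.41 CPM) complete the 12 with the widest gap. Crybb3 rests on 3 counts in corn oil 2.

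Of 40 genes of growth signals and cell cycle entry tested, 7 lay above and 6 below corn oil in every TCPOBOP library. The shares over all genes were 16.8% and 18.7%. Of the 6, 3 separated by 2-fold (0.313% over all genes): Egr1, Fos and Mycn. Egr1, a transcription factor induced within minutes by growth and stress signals, was at 9.49, 41.3, 1.117 and 1.63 CPM. Fos, a partner in the AP-1 factor, was at 2.50, 3.26, 0.470 and 0.628 CPM, and Mycn was at 2.05, 2.06, 0.353 and 0.126 CPM. The corn oil libraries lay above both TCPOBOP libraries in all 3, but the level of Egr1 differed several-fold between the corn oil libraries themselves. Jun, by contrast, was highest in corn oil 1 (57.2, 10.2, 16.3 and 19.7 CPM), and Myc stayed within 2-fold over the libraries (13.8, 12.3, 10.7 and 8.98 CPM). The early response genes Junb (6.76, 27.9, 8.35 and 15.4 CPM) and Atf3 (4.77, 1.49, 1.24 and 2.07 CPM) did not separate. Egr1 in the 9 other control livers ran from 6.02 to 240 CPM, above both TCPOBOP libraries. Fos ran from 0.204 to 109 CPM, a range that holds all 4 libraries.

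2 glutathione genes, Gclc and Gsta2, were among the 40 lower ones. Gclc, the catalytic subunit that limits glutathione synthesis, was at 405, 384, 163 and 161 CPM, with a log2 fold change of -1.28 ± 0.14 (edgeR adjusted p = 0.345). Its partner Gclm, the modifier subunit, was at 310, 303, 344 and 351 CPM, so its TCPOBOP libraries lay slightly above corn oil. The glutathione transferase Gsta2 was at 51.7, 42.4, 15.7 and 10.5 CPM. Against corn oil 2 alone the log2 fold change was -1.24 for Gclc and -1.69 for Gsta2. Against corn oil 1 alone it was -1.32 for Gclc and -1.98 for Gsta2. Of 22 genes of the oxidative stress response driven by Nrf2, 3 lay above and 6 below in every library (16.8% and 18.7% over all genes), and their median log2 fold change was -0.09. Across the 9 other control livers Gclc ran from 109 to 305 CPM and Gsta2 from 5.26 to 35.5 CPM, so both TCPOBOP libraries were inside those ranges and both corn oil libraries above them.

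Aqp8, a water channel of the bile canaliculus, was at 177, 107, 20.9 and 30.6 CPM. Chka, which starts phosphatidylcholine synthesis, was at 48.8, 40.0, 14.7 and 15.4 CPM. The kinase gene Mapk15 was at 11.8, 13.1, 2.88 and 3.08 CPM, and the protease inhibitor Serpine2 at 11.5, 12.4, 3.23 and 4.21 CPM. All 4 had corn oil libraries within 2-fold of each other and TCPOBOP libraries well below. The immunoglobulin heavy chain gene Ighm, a B cell marker, was at 15.6, 12.1, 3.12 and 2.64 CPM. It ran from 1.63 to 9.58 CPM in the 9 other control livers. Both TCPOBOP libraries were inside that range and both corn oil libraries above it (15.2 and 11.8 CPM on that scale). Of the 18 leukocyte markers listed, 5 passed the filter, and 1, Ighm, separated by 2-fold (0.313% lower over all genes). Ptprc, the pan-leukocyte marker CD45, was at 8.64, 7.61, 6.47 and 9.43 CPM, with the libraries overlapping. The summed CPM of all 18 was 29.7 and 29.4 in corn oil and 15.05 and 18.4 in TCPOBOP. The part of B cell content was not tested.

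Srgap3, a regulator of the actin skeleton (3.52, 4.41, 1.06 and 0.817 CPM), the nicotinic receptor subunit Chrna4 (8.13, 5.90, 0.823 and 1.88 CPM) and the stress ligand Raet1d (9.55, 13.2, 1.70 and 3.58 CPM) were low in every library but lower with TCPOBOP. Hectd2os, a transcript antisense to Hectd2, was at 19.2, 82.1, 7.52 and 7.29 CPM. The kit marked strand, but whether the counting used it is not given in the sources used here, so reads of Hectd2os and Hectd2 cannot be told apart with certainty.

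Of 28 fat synthesis and storage genes, 11 were below and 2 above both corn oil libraries in both TCPOBOP libraries (18.7% and 16.8% over all genes), none of them by 2-fold, and their median log2 fold change was -0.53. Fasn, the fatty acid synthase, was at 623, 828, 324 and 309 CPM. Srebf1, the transcription factor that drives fatty acid synthesis, was at 229, 462, 140 and 155 CPM, and the lipid droplet coat gene Plin2 was at 239, 414, 165 and 154 CPM. For each of the 3, corn oil 1 lay between corn oil 2 and the TCPOBOP libraries. Fasn fell by 1.38 without corn oil 1 (edgeR adjusted p = 0.000738), and it fell by 0.97 without corn oil 2 (edgeR adjusted p = 0.00776), both on the log2 scale. Pklr, the liver pyruvate kinase, was at 322, 196, 103 and 97.4 CPM, and Ppp1r3c, which targets a phosphatase to glycogen, at 49.9, 67.5, 18.3 and 24.2 CPM. Of 17 glucose genes 7 lay below and 1 above in every library (18.7% and 16.8% over all genes), with a median log2 fold change of -0.36. Hsd3b5, a steroid dehydrogenase more abundant in male liver, was at 133, 169, 64.3 and 30.6 CPM.

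Of 24 sterol synthesis genes, 18 had both TCPOBOP libraries above both corn oil libraries and 0 had both below (16.8% and 18.7% over all genes), but 0 reached 2-fold. Their median log2 fold change was 0.61. Squalene epoxidase (Sqle) was at 120, 111, 234 and 250 CPM, and Msmo1, a sterol demethylating oxidase, at 274, 246, 491 and 671 CPM. Idi1, which makes an isoprenoid building block, was at 80.5, 102, 158 and 239 CPM. In these the corn oil libraries were close and both TCPOBOP libraries higher. Against corn oil 1 alone 6 of the 24 were called raised, and against corn oil 2 alone 11 (1.51% and 5.71% over all genes). Insig1, which retains the sterol sensor in the endoplasmic reticulum, was at 655, 642, 562 and 718 CPM and overlapped.

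A sterol regulatory element, spelled TCACNCCAC or its reverse complement, was present in the 250 bases before the start of 1 of the 16 sterol synthesis genes with a promoter in the table (6.25%), beside 1.01% of all. That gene was Hmgcs1, an early enzyme of the pathway, at 663, 525, 796 and 1125 CPM. Its promoter is shown with the element in capitals, 137 bases before the start and overlapping no other motif searched.
Hmgcs1, chr13:119690101-119690350 (+ strand): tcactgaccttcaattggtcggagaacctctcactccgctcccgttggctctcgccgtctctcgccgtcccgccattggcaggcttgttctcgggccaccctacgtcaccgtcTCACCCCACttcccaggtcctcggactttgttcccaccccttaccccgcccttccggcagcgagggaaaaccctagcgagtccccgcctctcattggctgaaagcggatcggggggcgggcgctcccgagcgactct
The CCAAT letters, on either strand, were in 14 of the 16 (87.5%), beside 36.8% of all, and in 73.7% of 19 clock gene promoters.

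In the second class, corn oil 2 lay at least 2-fold below (or above) each of the other 3 libraries and corn oil 1 was nearer to the nearest TCPOBOP library than to corn oil 2. This class held 458 genes in which corn oil 2 was lowest (3.58% of 12785) and 126 in which it was highest (0.986%). Of the 458, corn oil 1 was above both TCPOBOP libraries in 252, between them in 102 and below both in 104. The class overlaps the first: 10 genes with corn oil 2 lowest and 4 with corn oil 2 highest also separated the treatments. Membership of the class is a description and was not tested. The calls given for its genes below are from the fits with a lone corn oil library, which keep every label. The class already sets corn oil 2 at least 2-fold from both TCPOBOP libraries. Calls of its genes against corn oil 2 alone, also as counts within a list, reuse that gap and add no support.

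Cyp2b10, the classical mouse CAR target (chr7:25897620-25926624), had the widest gap of the class and was at 3786, 10.3, 3465 and 3079 CPM. Cyp2c55, another induced P450, was at 1603, 17.2, 1616 and 1255 CPM, and Akr1b7, an aldo-keto reductase, at 69.9, 0.630, 73.4 and 51.8 CPM. In all 3 the library labelled corn oil 1 was level with TCPOBOP and corn oil 2 was far below. In 9 other control livers of the series Cyp2b10 did not pass 60.8 CPM, Cyp2c55 did not pass 16.8 CPM and Akr1b7 did not pass 3.35 CPM (scaled over all 26 libraries). Corn oil 1 was at 3673, 1555 and 67.8 CPM on that scale, so in these genes it went against its label, and corn oil 2 (10.0, 16.7 and 0.612 CPM) was within the range of the other controls.

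Of the 34 phase I genes, 21 were in the class with corn oil 2 lowest and 1 in the class with it highest (3.58% and 0.986% over all genes). The most abundant were Cyp3a11 (25420, 6949, 29080 and 24260 CPM) and Cyp2c29 (15850, 1961, 15390 and 15260 CPM), both broad drug oxidases. The esterase Ces2a was at 5024, 613, 5005 and 4173 CPM, and the aldehyde dehydrogenase Aldh1a7 at 863, 290, 814 and 781 CPM. Corn oil 1 lay between the TCPOBOP libraries for Cyp3a11 and just above both for the other 3. Summed over all 39 listed, of which 34 were tested, the phase I genes took 79363, 18622, 84394 and 74757 CPM. Without corn oil 1, edgeR called 26 raised and 1 lowered (5.71% and 3.64% over all genes), and without corn oil 2 it called 4 raised and 4 lowered (1.51% and 1.64%). The gene called lowered without corn oil 1 was Cyp2c38 (11.4, 47.5, 16.5 and 19.3 CPM). Cyp2b and Cyp2c genes are close copies of each other, so the split of reads among them is uncertain.

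The letters AGGTCA, a core site that CAR and related receptors can bind, were found on either strand in the 250 bases before the start of 10 of 32 phase I genes with a promoter in the table (31.2%), beside 10.9% of all. The matches in Akr1b7 and Cyp3a11, both of the class with corn oil 2 lowest, are in capitals. They begin 248 and 162 bases before the start.
Akr1b7, chr6:34412112-34412361 (+ strand): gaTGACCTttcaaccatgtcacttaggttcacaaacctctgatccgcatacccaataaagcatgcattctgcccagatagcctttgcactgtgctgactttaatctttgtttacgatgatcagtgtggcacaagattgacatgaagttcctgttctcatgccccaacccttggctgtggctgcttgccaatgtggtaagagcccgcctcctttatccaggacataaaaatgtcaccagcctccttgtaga
Cyp3a11, chr5:145879855-145880104 (- strand): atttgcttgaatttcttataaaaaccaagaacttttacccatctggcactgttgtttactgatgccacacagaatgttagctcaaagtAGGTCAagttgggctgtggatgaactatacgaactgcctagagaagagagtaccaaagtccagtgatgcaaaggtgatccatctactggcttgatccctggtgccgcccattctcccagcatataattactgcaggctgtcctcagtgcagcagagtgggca
Cyp2b10 and Cyp2c55, with the widest gaps, had no match in this window, and regions farther away were not searched. The share was of like size in lists that do not hold drug metabolism genes, such as acute phase (30.4% of 23) and fat synthesis (34.8% of 23).

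Of 42 conjugating enzymes tested, 10 had corn oil 2 lowest and 8 had corn oil 1 at least 2-fold above every other library (3.58% and 0.931% over all genes). The glutathione transferase Gstm2 was at 715, 55.1, 281 and 202 CPM. Gsta1, an alpha class transferase, was at 447, 8.93, 55.4 and 29.2 CPM, and the oestrogen sulfotransferase Sult1e1 at 18.4, 0.172, 7.58 and 6.47 CPM. In these 3 genes corn oil 1 was not level with TCPOBOP but above it. In the 9 other control livers Gsta1 did not pass 7.47 CPM and Gstm2 did not pass 116 CPM, so all 4 libraries for Gsta1, and 3 of 4 for Gstm2, lay above those ranges. Against corn oil 1 alone, 13 of the 42 were called lowered and 0 raised (1.64% and 1.51% over all genes). Against corn oil 2 alone, 14 were called raised and 5 lowered (5.71% and 3.64%). Of the glucuronosyl transferases, Ugt2b34 was level with TCPOBOP in corn oil 1, at 2067, 750, 2116 and 1963 CPM. Sult3a1, a sulfotransferase, was at 13.2, 0, 7.47 and 22.6 CPM.

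**Figure D3:**
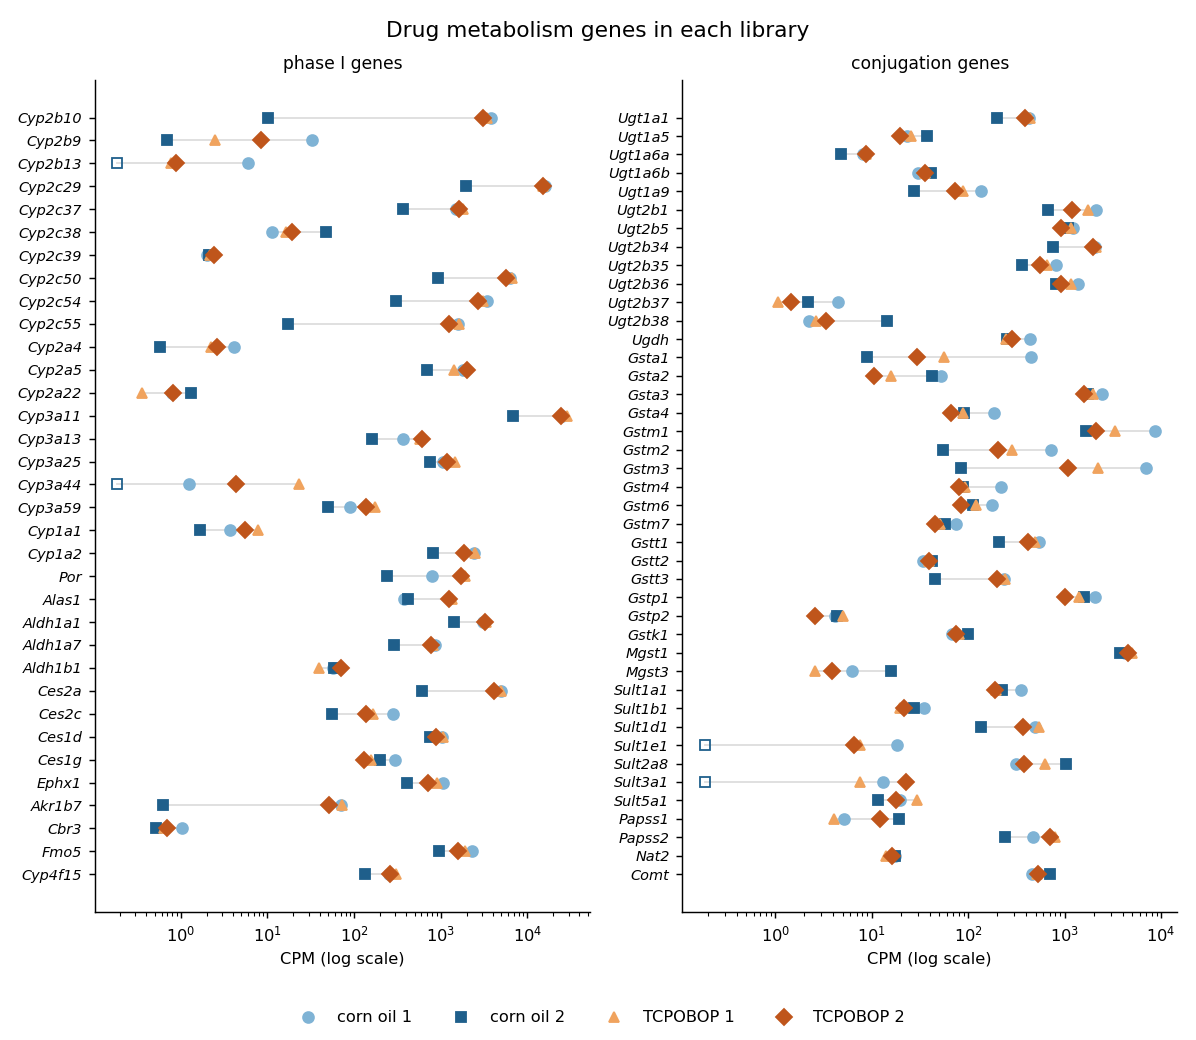
CPM on a log axis of the 34 phase I genes and 42 conjugation genes tested, with a symbol for each library; an open symbol at 0.185 CPM marks a library below that level. For Cyp2b10, Cyp2c55 and Akr1b7 the pale blue circle of corn oil 1 lies with the orange symbols and the dark square of corn oil 2 far to the left, whereas for Gsta1 and Gstm3 corn oil 1 lies to the right of every other library.

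The gene of CAR itself, Nr1i3, was at 70.4, 122, 95.9 and 118 CPM, and that of its partner Rxra at 330, 463, 537 and 491 CPM. Ahr, the receptor for planar aromatic compounds, was at 134, 45.7, 120 and 136 CPM, so corn oil 1 sided with TCPOBOP. Of 29 receptors and liver factors, Ahr was the 1 gene in that class (3.58% over all genes). Of 21 transporters, 2 were in it, the export pumps Abcc3 (700, 312, 723 and 690 CPM) and Abcc4 (12.4, 3.55, 7.41 and 7.98 CPM). The median log2 fold change was 0.05 for the receptors and -0.06 for the transporters. In the bile acid synthesis list, with 19 genes and a median of -0.10, Cyp7a1, the rate-limiting enzyme, was at 113, 83.8, 153 and 646 CPM, so TCPOBOP 2 stood apart from TCPOBOP 1. Cyp8b1, which sets the share of cholic acid, was at 262, 251, 175 and 142 CPM and was called lowered against each corn oil library alone (edgeR adjusted p = 0.0312 and 0.0428).

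Of 50 mitosis genes, 46 were in the class with corn oil 2 lowest (3.58% over all genes), and all 50 were higher in corn oil 1 than in either TCPOBOP library. The summed CPM of the list was 449, 52.3, 263 and 219. Cdc20, which activates the complex that starts anaphase, was at 29.8, 0.343, 15.1 and 7.85 CPM, and the DNA untangling enzyme Top2a at 19.4, 1.09, 14.2 and 12.4 CPM. Hmmr, a spindle protein, was at 15.3, 0, 6.23 and 6.09 CPM. Corn oil 1 was the highest library for each, and corn oil 2 was the lowest, with 19 counts for Top2a and 0 for Hmmr. In the 9 other control livers Cdc20 did not pass 3.05 CPM and Hmmr did not pass 1.31 CPM. Against corn oil 2 alone 37 of the 50 were called raised and 0 lowered (5.71% and 3.64% over all genes). Against corn oil 1 alone 0 were called raised and 7 lowered (1.51% and 1.64%).

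Of 39 DNA replication genes tested, 27 had corn oil 2 lowest (3.58% over all genes), and corn oil 1 was above both TCPOBOP libraries in 15 and below both in 6. Mcm6, part of the helicase that opens DNA, was at 45.5, 3.72, 34.2 and 49.2 CPM. Uhrf1, which carries DNA methylation through replication, was at 11.2, 0.114, 10.5 and 17.1 CPM, the corn oil 2 value resting on 2 counts. The ribonucleotide reductase subunit Rrm2 was at 50.0, 4.52, 38.7 and 33.5 CPM. Against corn oil 2 alone 30 were called raised and 1 lowered (5.71% and 3.64% over all genes), and against corn oil 1 alone 0 were called in either direction. The median TCPOBOP level over the list was 0.12 below corn oil 1 on the log2 scale, while for mitosis genes it was 0.88 below; the difference between the lists was not tested.

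Of the 40 growth signal genes, 10 had corn oil 2 lowest (3.58% over all genes). Gadd45b, a stress and growth response gene that CAR activation is known to raise, was at 31.4, 1.26, 34.3 and 40.5 CPM. Foxm1, the transcription factor of mitotic genes, was at 7.05, 0.229, 4.47 and 3.33 CPM. Cyclin D1 (Ccnd1) was at 69.4, 44.1, 87.1 and 86.5 CPM, so corn oil 1 lay between. Gadd45g went the other way, at 1.70, 25.9, 1.117 and 1.76 CPM.

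**Figure D4:**
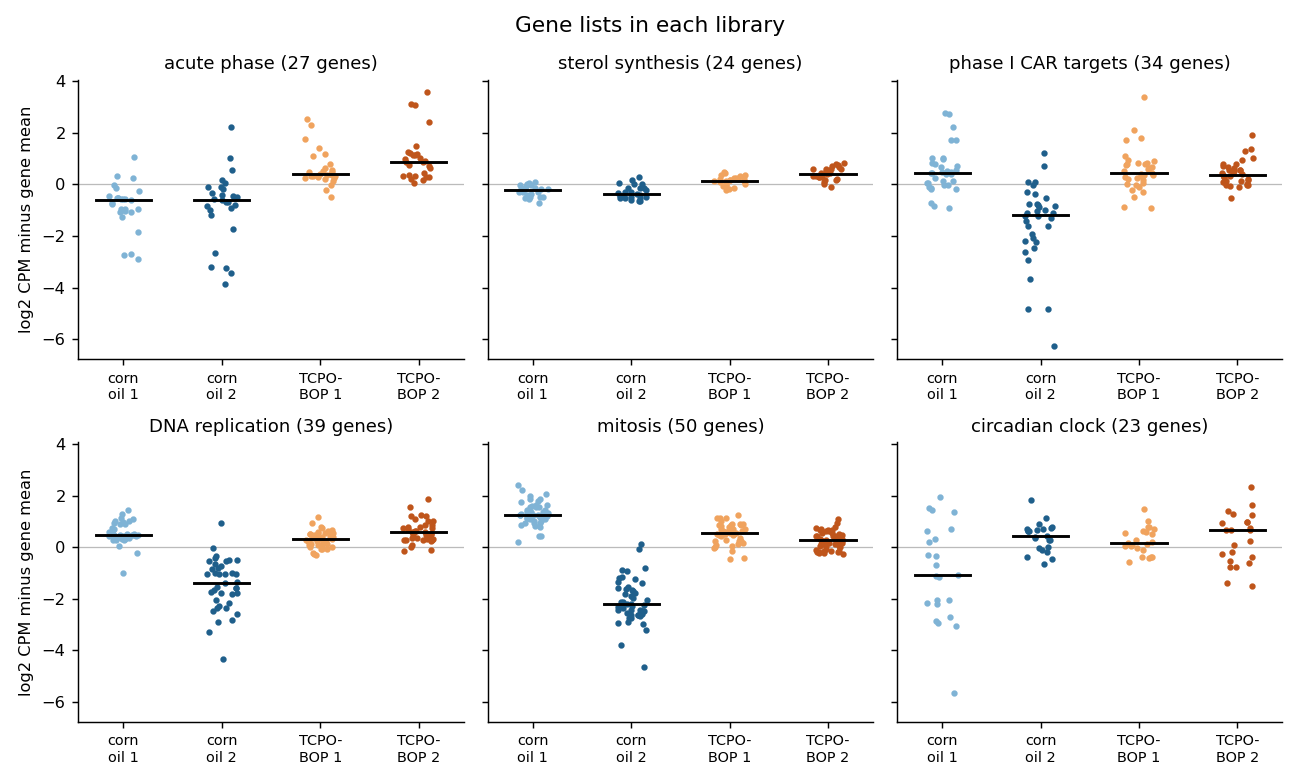
Log2 CPM of each gene minus its mean over the 4 libraries, for 6 gene lists; each dot is a gene and each bar the median of a library. Acute phase and sterol synthesis genes lie higher in both TCPOBOP libraries than in both corn oil libraries, phase I, DNA replication and mitosis genes lie lowest in corn oil 2, and clock genes spread widest in corn oil 1.

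The letters TTTGAA (the cell cycle homology region, CHR) on either strand were in the 250 bases before the start of 15 of 43 mitosis genes with a promoter in the table (34.9%), beside 11% of all. With the first 50 bases after the start included, 31 of 43 held them (72.1%), beside 12.4% of all. Among 31 DNA replication promoters the share was 9.68% in either window, and among 32 phase I promoters 31.2% in either window. CCAAT was in 32 of the 43 mitosis promoters (74.4%), beside 36.8% of all. The TTTGAA matches of Cdc20 (18 bases before the start) and Top2a (179 and 23 bases before) are in capitals, and overlap no other motif searched.
Cdc20, chr4:118437344-118437593 (- strand): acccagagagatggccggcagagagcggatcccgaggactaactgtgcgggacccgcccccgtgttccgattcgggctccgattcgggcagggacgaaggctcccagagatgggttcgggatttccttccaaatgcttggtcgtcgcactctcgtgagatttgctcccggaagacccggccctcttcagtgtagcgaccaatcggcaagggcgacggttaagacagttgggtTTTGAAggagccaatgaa
Top2a, chr11:99024190-99024439 (- strand): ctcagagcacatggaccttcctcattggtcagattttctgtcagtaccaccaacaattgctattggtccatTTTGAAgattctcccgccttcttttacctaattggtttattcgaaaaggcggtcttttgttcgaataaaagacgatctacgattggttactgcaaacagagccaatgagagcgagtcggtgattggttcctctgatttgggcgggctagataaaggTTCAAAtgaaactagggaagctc

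Genes with corn oil 2 highest, in which corn oil 1 sided with TCPOBOP, were fewer. Foxq1, a forkhead factor, was at 2.78, 69.9, 4.94 and 3.96 CPM. Serpina7, the thyroxine-binding globulin, was at 9.83, 97.2, 6.41 and 4.40 CPM, and Cxcl1, a chemokine that draws neutrophils, at 1.65, 22.9, 0.941 and 2.70 CPM. Corn oil 2 was the lone high library of the 4 in each. Across the 9 other control livers Foxq1 ran from 5.27 to 108.5 CPM (scaled over all 26 libraries). Corn oil 2 (67.9 CPM) was inside that range and the rest below it. Serpina7 ran from 8.31 to 71.1 CPM, with corn oil 2 (94.4 CPM) above. Cxcl1 ran from 0.294 to 24.8 CPM, a range that holds all 4 libraries. Rdh16, a retinol dehydrogenase, was at 18.8, 149, 20.3 and 24.6 CPM, and Ddah1, which degrades an inhibitor of nitric oxide synthesis, at 42.6, 206, 39.4 and 40.7 CPM. Albumin (Alb) was at 30920, 76590, 36370 and 35230 CPM. In the 9 other control livers Alb ran from 59740 to 102500 CPM, so corn oil 2 (74390 CPM on that scale) was inside that range and the other 3 libraries below it. Osbpl3, Aatk, Fitm1 and Olig1, with 5.78 to 40.5 CPM in corn oil 2, complete the 12 with the widest gap together with Gadd45g, Socs3 and Hectd2os. Of 24 fat oxidation genes 5 were in this class (0.986% over all genes).

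Other genes of the class with corn oil 2 lowest lie outside drug metabolism and the cell cycle. Krt4, a keratin of stratified epithelium, was at 32.8, 0, 14.5 and 16.7 CPM, and Nebl, an actin-binding protein, at 51.8, 0.286, 20.8 and 19.5 CPM. Fndc5, the precursor of irisin, was at 22.4, 0.458, 21.3 and 16.5 CPM, and the serine protease Tmprss7 at 6.93, 0, 3.17 and 2.83 CPM. The pseudogene Cyp2c53-ps was at 41.3, 0.687, 33.6 and 32.1 CPM. Pnliprp1, a pancreatic lipase relative, was at 27.2, 0, 4.997 and 4.59 CPM, and its corn oil 1 value stood above every other library. The pancreas markers Prss2, Cpa1 and Pnlip did not pass the filter, but 2 of the 12 pancreas and gut genes listed did. The 12 summed to 69.2, 75.4, 54.3 and 57.5 CPM. The part of pancreas tissue in the Pnliprp1 values was not tested.

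Corn oil 1 also stood apart from every other library, in some genes of the class above and in others outside it. It was lowest of all by at least 2-fold in 138 genes (1.08%) and highest in 119 (0.931%). Of the 119, 48 were also among the 458 genes with corn oil 2 lowest (40.3% of the former and 10.5% of the latter). Of the 138, 8 were among the 126 with corn oil 2 highest. Of the 8 of these 138 with the widest gaps, 4 were clock genes and 4 were globin genes. Dbp, an output transcription factor of the circadian clock (chr7:45705088-45710203), was at 0.284, 70.7, 56.1 and 102 CPM. Per3, a clock repressor, was at 0.739, 11.2, 12.1 and 22.0 CPM, and Ciart, a further repressor, at 0.284, 5.67, 4.59 and 7.98 CPM. Usp2, a rhythmic deubiquitinase, was at 1.88, 21.8, 28.6 and 33.7 CPM. In these 4, corn oil 2 and both TCPOBOP libraries lay together.

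Of 23 clock genes tested, 11 were lowest and 3 highest in corn oil 1 by 2-fold (1.08% and 0.931% over all genes). The nuclear receptor Nr1d1, which represses Arntl, was at 18.2, 121, 122 and 118 CPM. Arntl, the positive arm of the clock also called Bmal1, was at 30.9, 5.72, 7.35 and 2.95 CPM, and Cry1 at 27.7, 8.53, 6.35 and 5.66 CPM. Arntl and Cry1 were thus high where Nr1d1 was low. Against corn oil 1 alone 12 of 23 were called raised and 4 lowered (1.51% and 1.64% over all genes). Against corn oil 2 alone 0 were called raised and 2 lowered (5.71% and 3.64%). In the 9 other control livers Dbp ran from 4.37 to 134 CPM and Arntl from 0.585 to 17.7 CPM, and corn oil 1 (0.276 and 29.9 CPM on that scale) was outside both ranges. The labels give no time of day for any of these libraries, so its part was not tested.

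The E-box letters CACGTG, the same on both strands, were in the 250 bases before the start of 6 of 19 clock genes with a promoter in the table (31.6%), beside 8.50% of all. Ciart held 3 of them, 116, 58 and 44 bases before the start, shown in capitals. They overlap no other motif searched.
Ciart, chr3:95882229-95882478 (- strand): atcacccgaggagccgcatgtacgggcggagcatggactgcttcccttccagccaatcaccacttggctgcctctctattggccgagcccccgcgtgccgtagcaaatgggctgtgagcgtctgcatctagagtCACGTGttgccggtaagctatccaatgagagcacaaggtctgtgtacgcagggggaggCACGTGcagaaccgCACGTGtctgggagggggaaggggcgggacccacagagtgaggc

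Globin genes were low in corn oil 1 as well. Hbb-bs was at 4.43, 104, 61.0 and 124 CPM and Hba-a1 at 2.67, 52.9, 33.3 and 64.0 CPM, and Hbb-bt and Hba-a2 showed the same order of corn oil 1 far below the rest. Hbb-bs in the 9 other control livers ran from 39.5 to 196 CPM. Of 6 red blood cell genes tested, 5 were lowest in corn oil 1 (1.08% over all genes). The sixth was Alas2 (120, 138, 106 and 102 CPM). The summed CPM of all 8 genes listed was 128, 319, 215 and 320. A lower share of blood in that library and less globin RNA per cell cannot be told apart, and the part of blood content in the other differences of corn oil 1 was not tested.

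**Figure D5:**
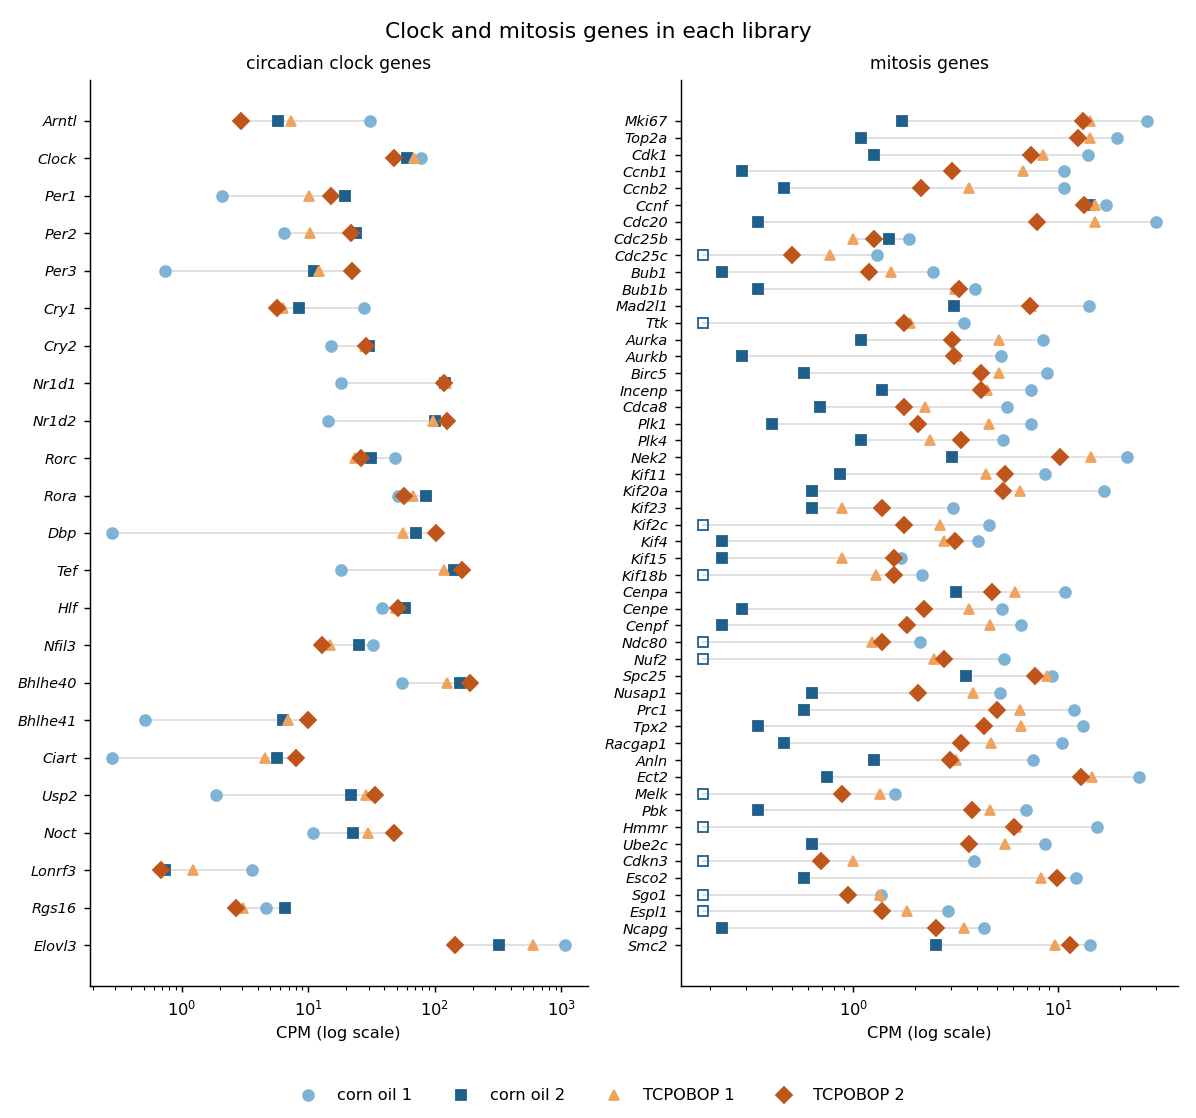
CPM on a log axis of the 23 clock genes and 50 mitosis genes tested, with a symbol for each library; an open symbol at 0.185 CPM marks a library below that level. In the left panel corn oil 1 (pale blue circle) lies alone, to the left for Dbp, Per3 and Nr1d1 and to the right for Arntl and Cry1; in the right panel corn oil 1 lies furthest right and corn oil 2 (dark square) mostly furthest left.

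Genes highest in corn oil 1 included Loxl4, a collagen cross-linking oxidase (13.4, 0.744, 2.06 and 0.817 CPM), and the receptor kinase Grk5 (24.3, 4.12, 3.94 and 2.95 CPM). The glutamate transporter Slc17a8 was at 70.01, 6.53, 12.6 and 11.9 CPM. Across the 9 other control livers Slc17a8 ran from 14.3 to 151 CPM (scaled over all 26 libraries). Corn oil 1 (67.9 CPM) was inside that range and the rest below it. Loxl4 did not pass 1.565 CPM there and Grk5 did not pass 4.07 CPM, both below corn oil 1 (13.0 and 23.5 CPM). Cyp2b13, a P450 more abundant in female liver, was at 5.97, 0, 0.764 and 0.880 CPM. Hapln1 and Chrdl2, an extracellular matrix linker and a secreted antagonist of bone morphogenetic proteins, were at 7.79 and 5.74 CPM in corn oil 1 and between 0.172 and 1.53 CPM in the others. In all of these corn oil 1 was alone above the other 3 libraries. Pck1, the rate-limiting enzyme of glucose production, was on the other side at 169, 1458, 1108 and 1452 CPM.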

How the data were processed

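RNA from whole liver was sequenced after a strand-marking poly(A) library preparation, per the labels' protocols. Per the submitters' processing notes, bcl2fastq 2.17.1.14, Trimmomatic, STAR 2.4.2a, Picard 1.119 and HTSeq were used, with the builds GRCm38 and mm10. The annotation release and the strand setting of the counting are not given in the sources used here. The authors deposited whole-number read counts per gene, not normalized. The table holds 47643 genes, of which 47224 were matched by identifier to a symbol in GENCODE M21, the source of gene coordinates. The 5 summary lines were left out of library sizes and tests. In the 4 libraries, as shares of all lines of the table including these 5, reads without a feature took 3.76% to 4.41%, ambiguous reads 1.78% to 2.10% and reads without a unique position 20.1% to 23.3%. No column of other samples was found.

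Genes were kept by edgeR's filterByExpr (minimum count 10, minimum total 15), which left 12785, and scaled by TMM. In R 4.3.3, edgeR 4.0.16 (with limma 3.58.1) compared 2 libraries a group by its quasi-likelihood test, with Benjamini-Hochberg adjustment and calls at an adjusted p under 0.05. DESeq2 1.42.0 gave an alternative. Gaps between libraries were measured on log2 CPM with a prior count of 2, and a gap of 2-fold was asked for. Genes named are the 12 with the widest gap in each direction for the separating class and for the corn oil 2 class, and 8 in each direction for corn oil 1, with an average log2 CPM of at least 1, plus examples from 28 gene lists (643 genes, 641 found), which were picked after their values were seen. A few of these genes are not reported here. The members and lists were chosen with earlier results of these data known. Close copies (the Saa, Gsta, Gstm, Cyp2b, Cyp2c, Cyp3a, Mup, Hba and Hbb genes) are uncertain as single genes.

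On simulated counts with 200 genes changed by 1.5 on the log2 scale, the procedure with all 4 libraries recovered 200 at a biological variation of 15%, with 7 false calls among 12423 unchanged genes. At 25% it recovered 126, with 4 false calls among 12411. Genes of low expression were not changed in the simulation, and recovery was lower without corn oil 1 at both settings. The variation estimated from the real libraries was 24.7%. It was 12.3% without corn oil 1 and likewise without corn oil 2. Without TCPOBOP 1, and likewise without TCPOBOP 2, it was 33.4%. All genes were simulated at a common variation, so the recovered share cannot be carried over to the real libraries. Promoters are the first listed for each gene in RefSeq's table. Alternatives covered scaling, filters, prior count, minimum gap, equal depth, the replicate number as a block, all 26 libraries in a single fit, DESeq2, and leaving out each library, where the lone library of a group is assumed to vary like the other group.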

Additional observations from a re-analysis of the deposited data

How the results depend on the processing

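The number of genes called between TCPOBOP and corn oil, 0 with edgeR on the 4 libraries, was 91 with DESeq2's Wald test. It was 9 with all 26 libraries in a single fit, 569 in that fit without corn oil 1 and 27 without corn oil 2. Leaving out each of the 4 libraries in turn gave from 0 to 1233 calls. Calls stayed at 0 with DESeq2's size factors, without the filter, with a filter on the mean count (10 or more) and at an adjusted p under 0.1. The 88 genes that separate the treatments by 2-fold became 178 with no filter, 282 at 1.5-fold and 8 at 4-fold, and 198 to 781 when each library was left out in turn. The 584 genes in which corn oil 1 sided with TCPOBOP became 1231 at 1.5-fold and 208 at 4-fold. The cause of these changes was not tested, except that fewer libraries, no filter and another gap alter what can pass by construction. For the 24 named genes that separate the treatments, 0 of 288 recomputed fold changes had the opposite sign. These genes were chosen for a gap of at least 2-fold between the groups. That choice left little room for a reversal, so the 0 is no measure of robustness. For the other 38 named genes, chosen because corn oil 1 and corn oil 2 differ, 58 of 456 had the opposite sign: 14 in each of the fits without corn oil 1, 12 in each without corn oil 2, 5 with the replicate block and 1 without TCPOBOP 1. Cyp2b10, at 0.79 on the log2 scale with all 4 libraries, was at -0.21 without corn oil 2, and Gsta1, at -2.43, was at 2.25 without corn oil 1.

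The titles number the libraries of each group, so a fit with the replicate number as a block was also made. It called 0 genes, with 719 at an unadjusted p under 0.05 and a smallest adjusted p of 0.409. The deviations of same-numbered libraries correlated at 0.104 over 12785 genes, with 2 pairs, and the labels do not say that a number marks a shared batch or day, so the fit without the block was kept.

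With 2 libraries a group, the simulated test at a variation of 25% recovered 63% of changes of 1.5 on the log2 scale. The simulated libraries of a group differed at random, without the gap between corn oil 1 and corn oil 2. That share therefore cannot be carried over to the real libraries. Genes under 3 counts in a library give no usable fold there, and that floor covers counting error only.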

Other observations

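Sex-biased genes of the liver were read as a list, since the sex of the mice is not in the labels. Over all genes tested, 16.8% lay above and 18.7% below both corn oil libraries in both TCPOBOP libraries, which is the background of the counts given here. Of 19 male-biased genes tested, 8 lay below and 2 above, with a median log2 fold change of -0.79. Mup20, a major urinary protein, was at 2056, 1856, 1166 and 1070 CPM (in the order corn oil 1, corn oil 2, TCPOBOP 1, TCPOBOP 2). Mup17, another member of that family, was at 745, 305, 1805 and 804 CPM, so members of the family did not share a direction. Of 14 female-biased genes tested, 4 lay above and 1 below, 8 had corn oil 2 lowest with corn oil 1 siding with TCPOBOP (3.58% over all genes), and the median was 0.20. Prom1 was among these 8, at 20.6, 0.286, 11.5 and 9.93 CPM.

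Genes of the hepatocyte zones were read the same way. Of 19 periportal genes 8 lay below and 0 above corn oil in every TCPOBOP library, with a median log2 fold change of -0.31. Uox, the urate oxidase, was at 888, 2621, 843 and 885 CPM, with corn oil 2 alone high. Hsd17b13, a lipid droplet protein, was at 223, 377, 134 and 147 CPM and was called lowered against each corn oil library alone (edgeR adjusted p = 0.000559 and 0.0268). Of 18 pericentral genes 2 lay above and 1 below, with a median of 0.00; Oat, ornithine aminotransferase, was at 287, 1349, 757 and 787 CPM, lowest in corn oil 1. The 19 hepatocyte identity genes had a median of -0.01, with 5 above and 3 below. Of 21 genes of the unfolded protein and amino acid stress responses, 8 lay above and 2 below, with a median of 0.17. Trib3, a pseudokinase induced by stress, was at 7.96, 9.73, 24.2 and 18.4 CPM and was called raised against each corn oil library alone (edgeR adjusted p = 0.0147 and 0.0135). The 2 pancreas and gut genes that passed the filter had a median of -0.52.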
